A study of Mus musculus with 12 samples.

Results

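The D-type cyclins Ccnd1, Ccnd2 and Ccnd3, their partner kinases Cdk4 and Cdk6, the inhibitors Cdkn1a, Cdkn1b, Cdkn2c and Cdkn2d, and the substrate Rb1 were followed by RNA sequencing in the earliest stages of invariant natural killer T cells (iNKT cells), which recognise lipid antigens through a semi-invariant receptor. The 10 genes were chosen by symbol, as the core of the pathway that commits a cell to divide, and each matched 1 of the 48672 gene IDs counted. The cells came from thymi of C57Bl/6J mice aged 4 to 5 weeks, with thymi of 4 to 7 mice pooled. Tetramer-binding, TCR beta-positive cells were sorted as stage 1 (ST1), negative for CD24 and CD44, or as stage 0 (ST0), positive for CD24 and negative for CD44. There were 3 libraries in each of 4 groups: Bcl6KO ST1, WT ST1, Bcl6KO ST0 and WT ST0. The Bcl6KO mice carried floxed alleles of Bcl6, a transcriptional repressor, with a Cre transgene that the labels call CDCre, and no promoter beyond that name is given; the WT mice are labelled wild type, and whether they carried Cre or floxed alleles is not given. No group received a treatment. Whether replicate libraries derive from separate pools of mice is not stated, and p-values therefore reflect library-to-library spread that may in part be technical.

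D cyclins accumulate when growth or antigen receptor signals reach a resting cell. They bind CDK4 or CDK6, and the active kinase phosphorylates the retinoblastoma protein RB1, which then releases E2F factors to transcribe genes of DNA replication. INK4 inhibitors, which include the products of Cdkn2c and Cdkn2d, bind the kinases directly, whereas CIP/KIP inhibitors, the products of Cdkn1a and Cdkn1b, bind cyclin-kinase complexes. In the thymus, CCND3 and CDK6 are known for their part in the expansion of immature thymocytes, and stage 0 iNKT cells have just been selected on double-positive thymocytes.

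Library totals ran from 4129919 to 8038717 counts. Levels are depth-normalised counts (CPM) on library sizes adjusted with TMM, the trimmed mean of M-values, and 3 counts, the limit that a count of 0 allows, correspond to 0.569 to 0.615 CPM. Because these are bulk samples, fewer cells of a type and less RNA per cell cannot be told apart. The Bcl6KO ST0 libraries stood apart from the other groups: Sp100, a nuclear body gene, took 10.8%, 23.9% and 17.9% of their counts, against 3.32 ± 2.86% in WT ST0 (SD, n = 3), and they had the fewest genes detected, 16287 ± 1437 against 19770 ± 1649. Bcl6 was counted at 607 ± 83.0 CPM in Bcl6KO ST0 and 288 ± 78.9 CPM in WT ST0, and at 31.97 ± 21.5 CPM in Bcl6KO ST1 and 7.18 ± 2.63 CPM in WT ST1 (SD, n = 3 each). This gene-level count checks neither the deletion nor the labels, since which exons are floxed is not stated. All 5 iNKT and T cell markers (Cd3e, Cd3g, Trbc2, Trav11, Zbtb16) were detected in each group, but not at equal levels. Zbtb16 was counted at 94.6, 8.72 and 48.2 CPM in Bcl6KO ST0 and at 193, 210 and 96.8 CPM in WT ST0, without overlap. Cd3e was higher in Bcl6KO ST0 without overlap (1925, 1242 and 1894 CPM against 1167, 1003 and 1204 CPM). Cd3g, Trbc2 and Trav11 overlapped between the stage 0 groups. Of the sort genes, Cd24a averaged 1.33 CPM in Bcl6KO ST1 and 5.84 CPM in WT ST1, against 242 CPM in Bcl6KO ST0 and 167 CPM in WT ST0. Cd44 was higher on average at stage 1, at 16.4 CPM in Bcl6KO ST1 and 15.01 CPM in WT ST1, against 1.09 CPM in Bcl6KO ST0 and 4.73 CPM in WT ST0, although both gates were CD44-negative, and the WT stages overlapped.

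Ccnd2 carried most of the D cyclin RNA per length in every library and was the one gene of the 9 tested that passed between genotypes, at stage 0 only and not under every setting. Its product is a main D cyclin of mature lymphocytes. Ccnd2 (ENSMUSG00000000184, mm10 chromosome 6, 127125162 to 127152193, minus strand) was counted at 1739.6, 2355 and 2627 CPM in the Bcl6KO ST0 libraries, against 704, 696 and 759.9 CPM in WT ST0. At stage 1 it was counted at 1117, 1481 and 1270.4 CPM in Bcl6KO and at 959, 1223 and 1160.1 CPM in WT. The Bcl6KO ST0 libraries were the 3 highest of all 12 and the WT ST0 libraries the 3 lowest, with both stage 1 groups between them and overlapping.

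**Figure D1:**
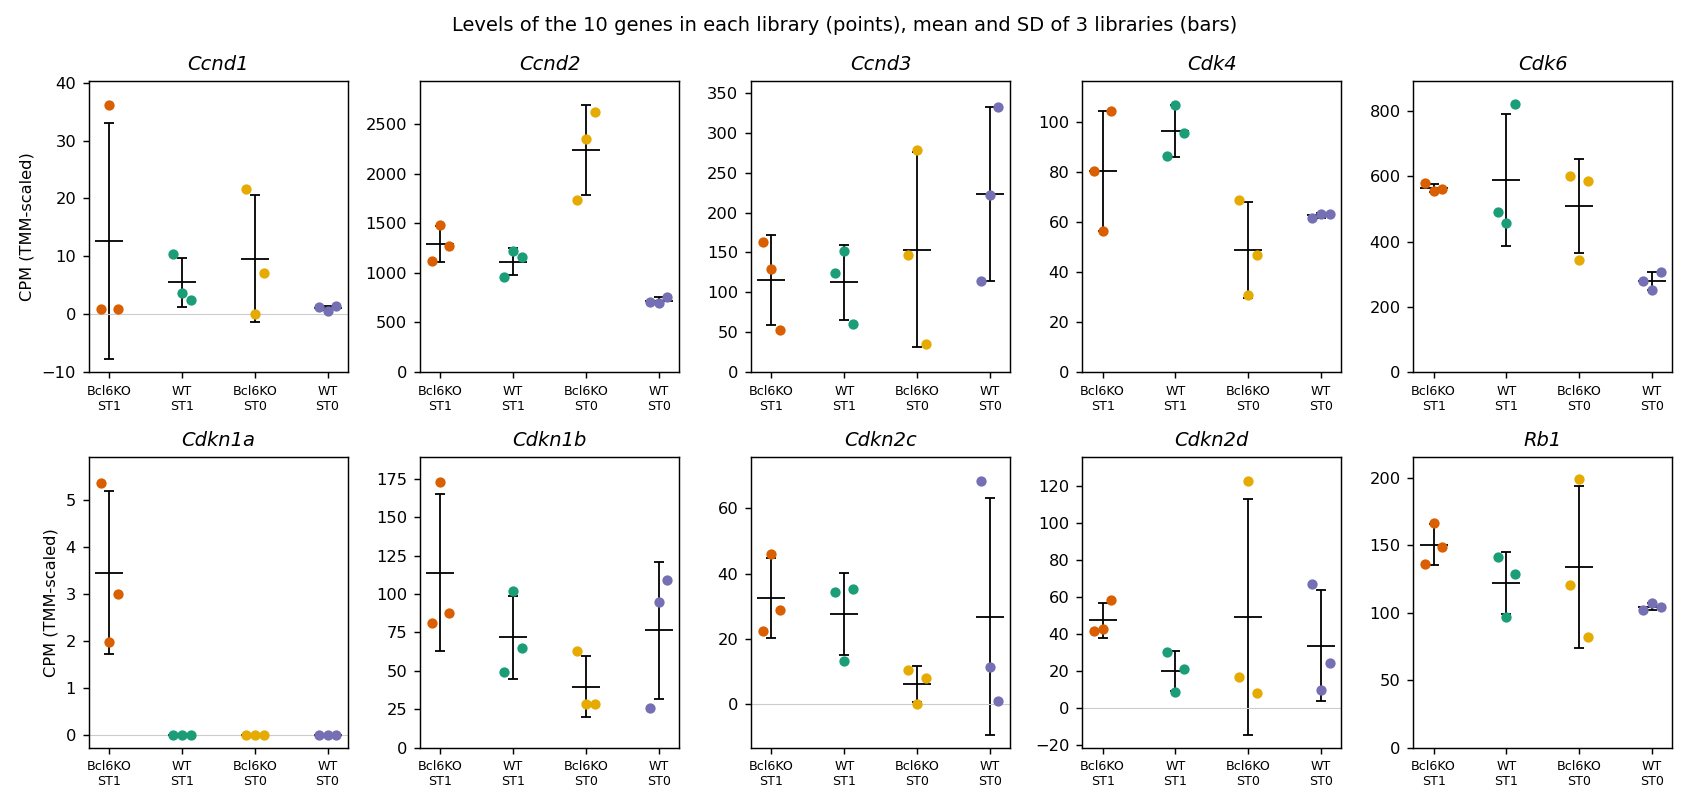
Levels of the 10 genes in CPM on linear axes, 1 panel per gene; points are single libraries in the order of their replicate numbers, the long bar is the mean and the error bar the SD of 3 libraries in each of the 4 groups. Ccnd2 is highest in the 3 Bcl6KO ST0 libraries (1739.6 to 2627 CPM), whereas Cdkn1a has counts in the 3 Bcl6KO ST1 libraries and in no other.

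Bcl6KO ST0 cells had 3.11 times the Ccnd2 level of WT ST0 cells, 2241 ± 455 CPM against 720.2 ± 34.7 CPM (SD, n = 3 each). The log2 fold change was 1.64 (SE 0.21, 95% interval 1.19 to 2.09), and its edgeR quasi-likelihood p of 2.38e-06 (Benjamini-Hochberg adjusted p = 0.0340) was the lowest of the 15704 genes tested. With edgeR 3 genes, 0.0191% of those tested, passed in this comparison, and the other two were Camk1d, a calcium-dependent kinase, and Igfbp4, a binding protein of insulin-like growth factors. The number was 133 without Bcl6KO ST0 library 1, 103 with no filter on low counts and 1100 with DESeq2 (355 higher and 745 lower in Bcl6KO ST0). Expressed as a share of all counts, with no scaling between libraries, Ccnd2 took 0.169 ± 0.0234% in Bcl6KO ST0 and 0.0764 ± 0.00783% in WT ST0. The direction held under all 21 alternatives run (log2 fold change 1.14 to 1.78), but the call was kept in 9 of the 20 edgeR alternatives and with DESeq2 (adjusted p = 6.90e-07). It was lost with the Sp100 share as a covariate (1.14, edgeR adjusted p = 0.263), with the 2 groups fitted alone (1.64, adjusted p = 0.247), on unscaled library totals (1.15, adjusted p = 0.0907), and without any 1 of 8 libraries: WT ST0 library 1, 2 or 3 (adjusted p = 0.168, 0.115 and 0.112), WT ST1 library 1 (0.0651), Bcl6KO ST0 library 2 or 3 (0.0543 and 0.0777) and Bcl6KO ST1 library 1 or 3 (0.0617 and 0.0532).

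The exons of Ccnd2 share 7.86% of their bases with Gm43126 and 9330179D12Rik on the opposite strand, and whether counting used strand is not given. Gm43126 was counted at 290.4 ± 57.8 CPM in Bcl6KO ST0 and 93.6 ± 11.1 CPM in WT ST0 (SD, n = 3 each), so it was higher in the same libraries as Ccnd2. It stood at 12.02% to 13.6% of the Ccnd2 count in Bcl6KO ST0 and at 11.5% to 14.7% in WT ST0, and 9330179D12Rik at no more than 4.51% of it in any library.

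At stage 1, Ccnd2 did not pass between genotypes (log2 fold change 0.21, SE 0.20, 95% interval -0.23 to 0.65, edgeR adjusted p = 1.00), with 1289 ± 182 CPM in Bcl6KO and 1114 ± 138 CPM in WT (SD, n = 3 each). Between stages it ran in opposite directions in the genotypes. All 3 Bcl6KO ST1 libraries lay below all 3 Bcl6KO ST0 libraries (-0.80, SE 0.21, 95% interval -1.24 to -0.36, edgeR adjusted p = 0.0901), whereas all 3 WT ST1 libraries lay above all 3 WT ST0 libraries (0.63, SE 0.20, 95% interval 0.19 to 1.07, adjusted p = 0.353). The Bcl6KO stage difference passed with DESeq2 (-0.82, adjusted p = 0.0308) and without Bcl6KO ST0 library 1 (-0.94, edgeR adjusted p = 0.0473). The stage comparisons use the same stage 0 and stage 1 libraries as the genotype comparisons. The genotype effect at stage 1 minus that at stage 0 was -1.43 (SE 0.29, 95% interval -2.05 to -0.80) and did not pass across all genes (edgeR adjusted p = 0.483, DESeq2 adjusted p = 0.0224). Averaged over both stages, the genotype effect on Ccnd2 was 0.92 (SE 0.15, 95% interval 0.61 to 1.24, edgeR adjusted p = 0.0693). That average passed with DESeq2 (0.94, adjusted p = 0.000273), with no filter on low counts (0.88, edgeR adjusted p = 0.00739) and without Bcl6KO ST0 library 1 (0.99, edgeR adjusted p = 0.0308).

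Ccnd3, the D cyclin best known from immature thymocytes (ENSMUSG00000034165, chromosome 17, 47505051 to 47599691, plus strand), varied more between libraries than between groups. It was counted at 163, 129.6 and 53.3 CPM in Bcl6KO ST1 and at 125, 152 and 60.5 CPM in WT ST1. At stage 0 it was counted at 146, 279 and 35.6 CPM in Bcl6KO and at 115, 222 and 332 CPM in WT. Libraries of all 4 groups overlapped, and the stage 0 genotype difference did not pass (log2 fold change -0.54, SE 0.64, 95% interval -1.93 to 0.85, edgeR adjusted p = 0.758).

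Ccnd1, the D cyclin of many non-lymphoid tissues (ENSMUSG00000070348, chromosome 7, 144929931 to 144939925, minus strand), was near the detection limit in most libraries and high in a few. It had 4, 182 and 4 counts in Bcl6KO ST1 (0.795, 36.2 and 0.799 CPM) and 52, 18 and 12 counts in WT ST1 (10.4, 3.55 and 2.46 CPM). It had 108, 0 and 36 counts in Bcl6KO ST0 (21.6, 0 and 7.09 CPM) and 6, 3 and 7 counts in WT ST0 (1.19, 0.591 and 1.38 CPM). Single libraries thus set the mean of both Bcl6KO groups. The stage 0 genotype difference had an interval of -0.70 to 7.00 around a log2 fold change of 3.15 (SE 1.79, edgeR adjusted p = 0.436), and 23.4% of the exonic bases of Ccnd1 are shared with LTO1 on the opposite strand.

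Per kilobase of exon, the 3 D cyclins together stood at 258 ± 44.6 CPM per kb in Bcl6KO ST0, against 102 ± 15.6 CPM per kb in WT ST0, and at 153 ± 23.4 CPM per kb in Bcl6KO ST1, against 132 ± 14.9 CPM per kb in WT ST1 (SD, n = 3 each). Ccnd2 made up 88.7% to 98.0% of this sum in the Bcl6KO ST0 libraries and 67.9% to 84.9% in WT ST0. In the stage 1 libraries its share was 86.4% to 95.6% in Bcl6KO and 86.1% to 94.3% in WT. WT ST0 was thus the group with the largest Ccnd3 share, 24.0 ± 8.60%, against 6.93 ± 5.02% in Bcl6KO ST0. These shares are given as a description, with no test.

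**Figure D2:**
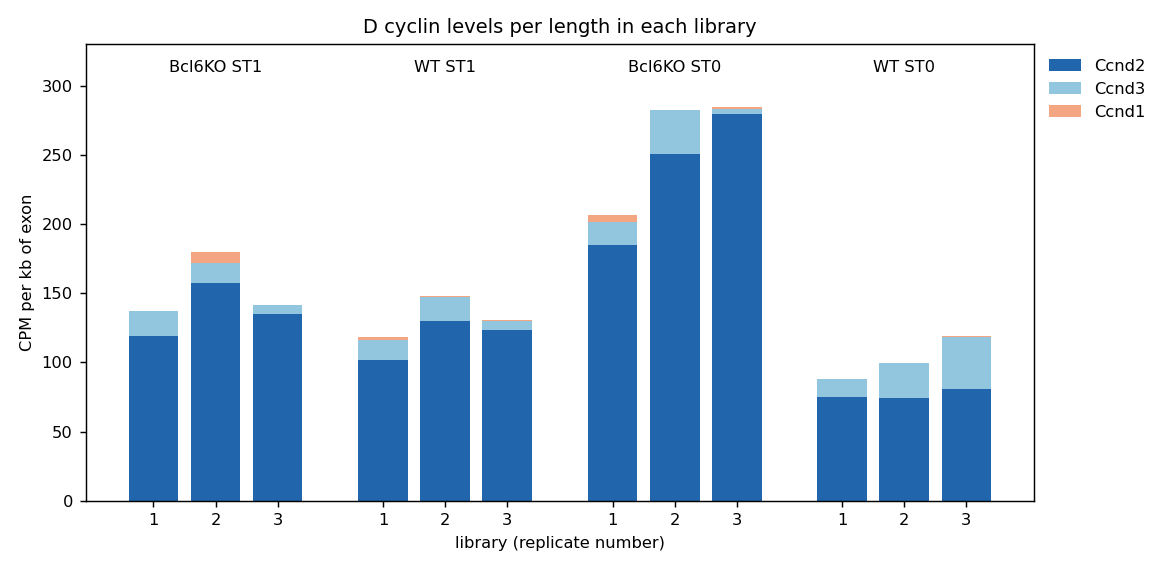
Level per length of the 3 D cyclins in each of the 12 libraries, stacked, in CPM per kb of exon on a linear axis that starts at 0; libraries are grouped by genotype and stage and numbered by replicate. The Bcl6KO ST0 libraries have the tallest bars (206 to 285 CPM per kb) and Ccnd2 fills most of every bar.

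The promoters of the kinases are shown because Cdk4 and Cdk6, like Ccnd1 and Ccnd2, had all WT ST1 libraries above all WT ST0 libraries. Each sequence is the 250 bases upstream of a start in RefSeq's GRCm38.p6 annotation, 5′ to 3′ on the gene's strand. Capitals mark the E-box CACGTG, the core bound by MYC family factors, and, in Cdk6, a match to the E2F-type motif TTTNNCGC, both searched on both strands with no overlap between matches.

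Cdk4 (chr10:127063285-127063534, plus strand): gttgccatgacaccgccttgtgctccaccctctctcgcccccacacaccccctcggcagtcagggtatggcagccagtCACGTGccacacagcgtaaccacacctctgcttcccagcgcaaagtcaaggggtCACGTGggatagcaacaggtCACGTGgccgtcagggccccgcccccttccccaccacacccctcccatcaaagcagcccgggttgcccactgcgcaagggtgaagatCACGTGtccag

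Cdk6 (chr5:3343643-3343892, plus strand): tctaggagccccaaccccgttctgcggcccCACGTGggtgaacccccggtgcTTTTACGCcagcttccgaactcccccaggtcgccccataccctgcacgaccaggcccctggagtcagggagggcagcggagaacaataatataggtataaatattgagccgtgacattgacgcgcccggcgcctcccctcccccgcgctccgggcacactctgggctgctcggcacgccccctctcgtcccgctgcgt

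The Cdk4 window holds 4 E-boxes, beginning 172, 118, 98 and 11 bases upstream of the start, whereas 6.02% of the 32851 promoter windows of this length hold any and 7 windows (0.0213%) hold 4 or more. The Cdk6 window holds 1 E-box and the match TTTTACGC, a motif found in 4.28% of windows. Windows were given for 7 of the 10 genes (10 windows, with Ccnd1, Ccnd2 and Rb1 not covered), and none of them holds the palindrome TTCNNNGAA, read by BCL6 and STAT factors and present in 7.02% of all windows. These matches are letters in a sequence; binding was not measured in these libraries.

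Cdk6 (ENSMUSG00000040274, chromosome 5, 3341485 to 3531008, plus strand), the kinase that predominates in lymphoid progenitors, was lowest in WT ST0 and did not pass in any comparison. It was counted at 600.3, 344 and 585 CPM in Bcl6KO ST0 and at 279.9, 252 and 306 CPM in WT ST0. At stage 1 it was counted at 579, 556 and 560.0 CPM in Bcl6KO and at 489.8, 456 and 821 CPM in WT. The 3 WT ST0 libraries were the 3 lowest of the 12, below every library of the other groups. The stage 0 genotype difference was 0.87 on the log2 scale (SE 0.28, 95% interval 0.26 to 1.47, edgeR adjusted p = 0.208). The WT stage difference was 1.08 (SE 0.28, 95% interval 0.47 to 1.68, edgeR adjusted p = 0.171), and both comparisons share the WT ST0 libraries. At stage 1 the genotype difference was -0.06 (95% interval -0.66 to 0.54, edgeR adjusted p = 1.00) and between stages in Bcl6KO it was 0.15 (95% interval -0.45 to 0.75, adjusted p = 0.842). Both turned sign when 1 library was left out, to 0.25 without WT ST1 library 3 and to -0.07 without Bcl6KO ST0 library 2.

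Cdk4 (ENSMUSG00000006728, chromosome 10, 127063534 to 127067920, plus strand), the more broadly used partner kinase, was counted at 80.4, 56.2 and 104 CPM in Bcl6KO ST1 and at 86.3, 107 and 95.6 CPM in WT ST1. It was counted at 68.9, 30.7 and 46.9 CPM in Bcl6KO ST0 and at 61.6, 63.4 and 63.2 CPM in WT ST0. The WT libraries of the 2 stages did not overlap and the Bcl6KO libraries did. Averaged over both genotypes, stage 1 was above stage 0 by 0.67 on the log2 scale (SE 0.29, 95% interval 0.05 to 1.29), which did not pass (edgeR adjusted p = 0.236), and the same average for Cdk6 was 0.61 (SE 0.20, 95% interval 0.19 to 1.04, adjusted p = 0.114). At stage 0 the genotype difference of Cdk4 was -0.36 (SE 0.41, edgeR adjusted p = 0.736), and Tspan31, on the opposite strand, shares 19.7% of its exonic bases.

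Per kilobase, Cdk6 exceeded Cdk4 by a ratio of 2.51 ± 0.445 in Bcl6KO ST0, against 1.04 ± 0.103 in WT ST0 (SD, n = 3 each). The ratio was 1.74 ± 0.528 in Bcl6KO ST1 and 1.43 ± 0.513 in WT ST1. The stage 0 libraries of the genotypes did not overlap in this ratio (2.02 to 2.90 in Bcl6KO, 0.924 to 1.13 in WT), which was not tested.

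Among the CIP/KIP inhibitors, Cdkn1a was the gene with the sharpest restriction to 1 group, at a very low level. Its product p21 halts the cycle after p53 activation. Cdkn1a (ENSMUSG00000023067, chromosome 17, 29090976 to 29100727, plus strand) had 27, 10 and 15 counts in the Bcl6KO ST1 libraries (5.36, 1.99 and 2.99 CPM) and 0 counts in each of the other 9 libraries. Its mean of 3.45 ± 1.73 CPM was at least 5.73-fold higher than the floor of WT ST1 (3 counts per library, 0.602 CPM) and at least 5.88-fold higher than that of Bcl6KO ST0 (0.586 CPM). It was the one gene of the 10 left out of the tests by the filter on low counts. Without that filter its edgeR p was 0.00448 for Bcl6KO ST1 against WT ST1 (adjusted p = 0.939) and 0.00406 for Bcl6KO ST1 against Bcl6KO ST0 (adjusted p = 0.149). Of the 2 Cdkn1a promoter windows, the upstream one is shown because it holds 2 copies of the core CATG of p53 half-sites, CATGNNNNNNCATG. They stand in capitals 48 to 35 bases upstream of the start of that window's transcript. The other window (chr17:29093519-29093768), at a start further downstream, holds no match. The motif is present in 0.49% of all windows.

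Cdkn1a (chr17:29090729-29090978, plus strand): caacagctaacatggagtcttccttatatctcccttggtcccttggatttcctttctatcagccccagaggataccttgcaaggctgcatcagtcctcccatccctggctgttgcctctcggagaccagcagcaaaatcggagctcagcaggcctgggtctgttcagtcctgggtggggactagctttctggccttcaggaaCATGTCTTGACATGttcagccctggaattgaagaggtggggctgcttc

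Cdkn1b (ENSMUSG00000003031, chromosome 6, 134920401 to 134925513, plus strand) encodes p27, the inhibitor that holds resting lymphocytes out of the cycle. It was counted at 81.4, 173 and 87.8 CPM in Bcl6KO ST1 and at 62.7, 28.6 and 28.2 CPM in Bcl6KO ST0. It was counted at 49.0, 102 and 64.6 CPM in WT ST1 and at 25.6, 94.7 and 109 CPM in WT ST0. All Bcl6KO ST1 libraries lay above all Bcl6KO ST0 libraries, and the WT stages overlapped. The Bcl6KO stage difference was 1.52 on the log2 scale (SE 0.58, 95% interval 0.26 to 2.77) and did not pass (edgeR adjusted p = 0.211). At stage 0 the genotype difference was -0.94 (SE 0.58, 95% interval -2.18 to 0.30, edgeR adjusted p = 0.477).

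Set against its inhibitor, Ccnd2 stood at 13.4, 39.8 and 45.1 times Cdkn1b per kilobase in the Bcl6KO ST0 libraries, against 13.3, 3.56 and 3.37 times in WT ST0. At stage 1 the ratio was 6.64, 4.15 and 7.00 in Bcl6KO (mean 5.93 ± 1.55) and 9.46, 5.82 and 8.69 in WT (mean 7.99 ± 1.92). WT ST0 library 1 and Bcl6KO ST0 library 1 had almost the same ratio, so the stage 0 groups touched.

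The INK4 inhibitors varied widely between the libraries of the stage 0 groups. Cdkn2c, which encodes p18 (ENSMUSG00000028551, chromosome 4, 109660876 to 109667189, minus strand), was counted at 22.2, 46.1 and 28.9 CPM in Bcl6KO ST1 and at 10.4, 0 and 8.07 CPM in Bcl6KO ST0. In WT it was counted at 34.3, 13.03 and 35.3 CPM at stage 1 and at 68.4, 11.2 and 0.787 CPM at stage 0. The Bcl6KO stages did not overlap, while the WT ST0 libraries spanned all the stage 1 values of both genotypes. At stage 0 the genotype difference of Cdkn2c was -2.12 (SE 1.38, 95% interval -5.10 to 0.86, edgeR adjusted p = 0.512), and without WT ST0 library 1 it was 0.02.

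Cdkn2d, which encodes p19 of the INK4 family (ENSMUSG00000096472, chromosome 9, 21288410 to 21291407, minus strand), was counted at 41.7, 42.7 and 58.5 CPM in Bcl6KO ST1 and at 30.7, 8.88 and 21.1 CPM in WT ST1. These groups did not overlap, and the difference did not pass (edgeR adjusted p = 1.00). At stage 0 it was counted at 16.8, 123 and 8.47 CPM in Bcl6KO and at 67.4, 10.04 and 24.6 CPM in WT. The genotypes overlapped at stage 0 (log2 fold change 0.54, SE 0.92, 95% interval -1.45 to 2.53, edgeR adjusted p = 0.845), and Bcl6KO ST0 library 2 set the sign, since the value without it was -1.44.

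Rb1, the substrate of the cyclin D kinases (ENSMUSG00000022105, chromosome 14, 73183673 to 73325822, minus strand), was the steadiest of the genes. It was counted at 136, 166 and 149 CPM in Bcl6KO ST1 and at 141, 96.5 and 129 CPM in WT ST1. At stage 0 it was counted at 121, 199 and 81.7 CPM in Bcl6KO and at 102, 107 and 104 CPM in WT. The libraries overlapped in every comparison, and the stage 0 genotype difference was 0.36 (SE 0.35, 95% interval -0.39 to 1.10, edgeR adjusted p = 0.683; -0.05 without Bcl6KO ST0 library 2).

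Per kilobase of exon, Ccnd2 was the most abundant of the 10 genes in every library. Its mean was 137 CPM per kb in Bcl6KO ST1, 118 in WT ST1, 238 in Bcl6KO ST0 and 76.5 in WT ST0. By mean, Cdk6 came next in 3 groups, with 40.4 CPM per kb in Bcl6KO ST1, 42.1 in WT ST1 and 36.4 in Bcl6KO ST0. That place lay within the spread of Cdkn2d in Bcl6KO ST0 (31.3 ± 40.5 CPM per kb). In WT ST1 library 2 the ratio of Cdk6 to Cdk4 was 0.989. In WT ST0 the genes next in order were Ccnd3 (25.4 CPM per kb), Cdkn2d (21.6), Cdk6 (19.98), Cdk4 (19.3), Rb1 (17.4) and Cdkn1b (16.8). They did not differ beyond the spread of Ccnd3 and Cdkn2d, and Cdkn2c followed at 9.98 ± 13.5 CPM per kb. Likewise Cdkn1b, Rb1 and Cdk4, at 25.04, 25.002 and 24.7 CPM per kb in Bcl6KO ST1, lay within their spread. Ccnd1 and Cdkn1a closed the order in each group, at 2.67 and 0.971 CPM per kb in Bcl6KO ST1.

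**Figure D3:**
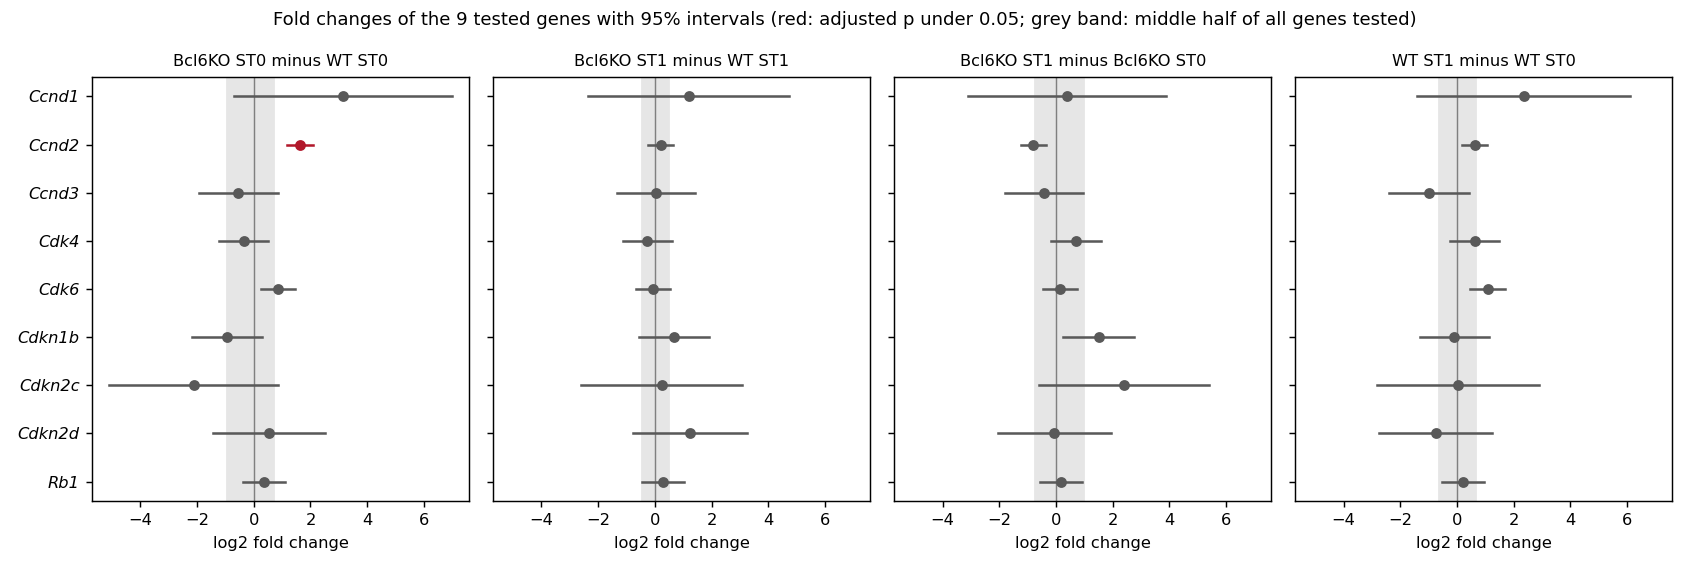
Log2 fold changes of the 9 tested genes (points) with 95% intervals (lines) in the 4 comparisons named above the panels, each written as the first group minus the second; red marks an adjusted p under 0.05 and the grey band spans the middle 50% of all 15704 genes tested. Ccnd2 at stage 0 (1.64) is the single red point, and the intervals of Ccnd1 and Cdkn2c are the widest.

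Of the 9 genes tested, 1 was called between genotypes at stage 0, where 0.0191% of all genes passed the edgeR test. None was called at stage 1, where 0% of all genes passed (2.57% at an unadjusted p under 0.05, and 16 genes with DESeq2). The genes were chosen with earlier results of these data known, so such counts are a description. None was called between stages in Bcl6KO (0.675% of all genes passed) or in WT (0.433%). At an unadjusted p under 0.05 the counts were 2 genes at stage 0 between genotypes (14.7% of all genes), 0 at stage 1, 2 between stages in Bcl6KO (16.4%) and 2 in WT (8.40%). None was called for the mean stage effect (3.46% of all genes), for the mean genotype effect (0.00637%) or for the difference of the genotype effects (0%, with 7.78% at an unadjusted p under 0.05 and 200 genes with DESeq2). With the Sp100 share as a covariate the stage 0 genotype differences of Cdk4, Cdkn1b, Cdkn2d and Rb1 changed sign, and none of them passed. Libraries of Bcl6KO ST0 and WT ST0 did not overlap for Ccnd2 and Cdk6, both higher in Bcl6KO, as for 4.67% of all genes. Bcl6KO ST1 and WT ST1 did not overlap for Cdkn2d, higher in Bcl6KO as for 5.87% of all genes, and for the untested Cdkn1a. The WT stages did not overlap for Ccnd1, Ccnd2, Cdk4 and Cdk6, all higher at stage 1, as for 12.5% of all genes. The Bcl6KO stages did not overlap for Ccnd2, lower at stage 1 as for 5.76% of all genes, and for Cdkn1b, Cdkn2c and Cdkn1a, higher at stage 1 as for 11.8%.

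Genes that act with the D cyclins were read from 7 lists. Genes of S phase and mitosis, which E2F release and the later kinases switch on, were higher in Bcl6KO ST0 than in WT ST0 for 14 of 15 by fold change, with a median log2 fold change of 1.01 against -0.01 for all genes, and none passed the edgeR test. Mki67, which encodes the Ki-67 proliferation antigen and is the most abundant of them, was counted at 1491, 2250.1 and 1794 CPM in Bcl6KO ST0 and at 441, 346 and 338 CPM in WT ST0. The groups did not overlap, and the log2 fold change of 2.30 (SE 0.40) did not pass with edgeR (adjusted p = 0.100), whereas it passed with DESeq2 (2.32, adjusted p = 0.000301) and with no filter on low counts (2.20, edgeR adjusted p = 0.00146). Top2a, the replication topoisomerase, singled out after its values were seen, was counted at 458, 332 and 461 CPM in Bcl6KO ST0 and at 56.3, 134 and 83.5 CPM in WT ST0 (2.19, SE 0.35, edgeR adjusted p = 0.0939), and it passed with the same settings (DESeq2 adjusted p = 4.08e-05, and edgeR adjusted p = 0.00149 with no filter). In this stage 0 comparison Mki67 also passed without WT ST1 library 2 (edgeR adjusted p = 0.0293), and Mki67 and Top2a without Bcl6KO ST0 library 1 (0.0246 and 0.0312). Mki67 thus passed in only 4 of 21 alternatives (log2 fold change 1.42 to 2.42, edgeR adjusted p up to 0.432). Top2a passed in only 3 of 21 (1.70 to 2.89, edgeR adjusted p up to 0.512). DESeq2 called 4 genes of the list there, Mki67, Top2a, Cdk1 and Mcm4, all higher in Bcl6KO ST0. Among all 17152 genes it tested there it called 1100, of which 355 were higher in Bcl6KO ST0. Cdk1 overlapped between the groups, at 12.18, 64.84 and 145.7 CPM in Bcl6KO ST0 and 10.14, 12.99 and 9.25 CPM in WT ST0. Mcm4 did not overlap. At stage 1 Mki67 was counted at 1294, 3177 and 2353 CPM in Bcl6KO and at 1166, 442 and 1302 CPM in WT, where the groups overlapped. The list's medians were 0.44 between genotypes at stage 1, -0.01 between stages in Bcl6KO and 0.67 between stages in WT, with none past the edgeR test in any of these; between the WT stages Top2a passed with DESeq2, with no filter and without WT ST0 library 2.

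None of the 8 genes of the CDK2 arm and the CDK-activating kinase passed the test between genotypes at stage 0 (median log2 fold change 0.82). Cdk7, the kinase that activates other CDKs and the most abundant of these by the mean over all 12 libraries, stood at 79.5, 501 and 56.3 CPM in Bcl6KO ST0 and at 87.1, 97.3 and 83.5 CPM in WT ST0. That rank rests on Bcl6KO ST0 library 2; Ccna2, the cyclin A partner of CDK2, averaged more than Cdk7 at stage 1, 133 against 84.9 CPM in Bcl6KO and 81.02 against 76.9 CPM in WT, and it was called at stage 0 between genotypes with DESeq2 alone. Of the 9 genes that act in the turnover of D cyclins and p27, none passed there (median 1.04). Gsk3b, the kinase that marks D cyclins for degradation, stood at 289 ± 94.6 CPM in Bcl6KO ST0 and 205 ± 29.2 CPM in WT ST0 (SD, n = 3 each). None of the 8 genes of the p53 pathway passed (median -0.19), and Trp53 itself stood at 292 ± 134.9 CPM in Bcl6KO ST0 and 233 ± 60.7 CPM in WT ST0. Other CDK inhibitors were almost silent. Of these 4 genes only Cdkn2b passed the filter, with at most 3.35 CPM in any library, and Cdkn1c, their highest on average, had 60 counts in 1 Bcl6KO ST0 library, 39 in 1 WT ST1 library and at most 5 in any other.

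Of 12 pocket protein and E2F genes, none was called between genotypes at either stage with edgeR (E2f7 was lower in Bcl6KO ST0 with DESeq2). When the genotypes were averaged, 1 was higher at stage 1, a comparison in which 3.46% of all genes passed in either direction. E2f7, a repressive E2F factor, was counted at 25.4, 13.7 and 26.95 CPM in Bcl6KO ST1 and at 29.9, 4.94 and 24.4 CPM in WT ST1. At stage 0 it was counted at 0.399, 0 and 0.394 CPM in Bcl6KO and at 25.04, 1.58 and 3.94 CPM in WT. The mean stage effect on E2f7 was 3.61 (SE 0.89, edgeR adjusted p = 0.0421), and leaving out 1 library kept the call only without WT ST0 library 1 (4.53, adjusted p = 0.0306; 0.0520 to 0.114 without any other). Rbl2, the pocket protein p130 of resting cells, was the most abundant of the list by the mean over all 12 libraries. It stood at 249 ± 48.5 CPM in Bcl6KO ST1 and 299.7 ± 9.58 CPM in WT ST1 (SD, n = 3 each). At stage 0 it stood at 152 ± 42.9 CPM in Bcl6KO and 275 ± 149 CPM in WT. In both Bcl6KO groups the mean of Tfdp1, the partner of E2F factors, exceeded that of Rbl2, with overlapping libraries. Tfdp1 stood at 257.5 ± 59.2 CPM in Bcl6KO ST1 and 201 ± 69.2 CPM in WT ST1. At stage 0 it stood at 308 ± 210.4 CPM in Bcl6KO and 127 ± 36.4 CPM in WT, which did not pass (log2 fold change 1.27, SE 0.45, edgeR adjusted p = 0.229).

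Of 10 tested genes of quiescence and upstream regulation, 2 rose with stage when the genotypes were averaged. That comparison called 3.46% of all genes in either direction, and 16 genes with the Sp100 share as a covariate. Foxo1, a factor of resting T cells that is known to activate Cdkn1b, stood at 237 ± 74.5 CPM in Bcl6KO ST1 and 236 ± 97.0 CPM in WT ST1, against 92.04 ± 40.6 CPM in Bcl6KO ST0 and 76.4 ± 8.50 CPM in WT ST0 (SD, n = 3 each; mean stage effect 1.50, SE 0.29, edgeR adjusted p = 0.0165). Tob1, an antiproliferative gene of unstimulated T cells, stood at 46.0 ± 12.9 CPM in Bcl6KO ST1 and 86.5 ± 18.2 CPM in WT ST1, against 19.0 ± 8.63 CPM in Bcl6KO ST0 and 23.6 ± 4.06 CPM in WT ST0 (1.57, SE 0.36, edgeR adjusted p = 0.0310). With the Sp100 share as a covariate neither passed, nor did E2f7 (adjusted p = 0.450 for Foxo1, 0.379 for Tob1 and 0.549 for E2f7). Foxo1 missed the threshold without WT ST1 library 1 (edgeR adjusted p = 0.0575), and Tob1 without any 1 of 8 libraries, namely WT ST0 library 1 or 3 (0.0810 and 0.0744), WT ST1 library 1, 2 or 3 (0.109, 0.0810 and 0.0691) and Bcl6KO ST1 library 1, 2 or 3 (0.0877, 0.0544 and 0.0618). Btg1, the most abundant antiproliferative gene of the list, stood at 141 ± 40.5 CPM in Bcl6KO ST1, 339 ± 168 CPM in WT ST1, 244 ± 81.2 CPM in Bcl6KO ST0 and 248 ± 49.9 CPM in WT ST0.

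**Figure D4:**
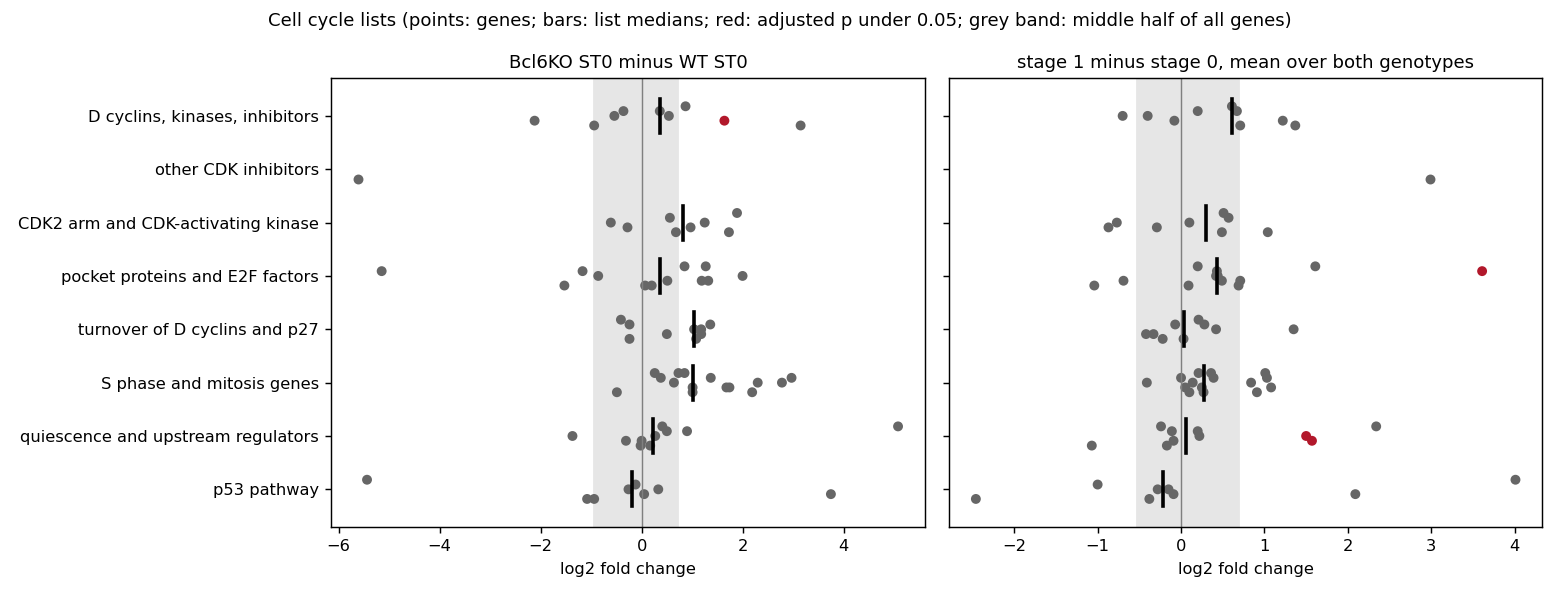
Log2 fold changes of the genes of each list (points; black bars are list medians; red points have an adjusted p under 0.05; the grey band spans the middle 50% of all genes tested) for Bcl6KO ST0 minus WT ST0 (left) and for the mean stage effect, stage 1 minus stage 0 (right). On the left Ccnd2 is the red point and 14 of 15 S phase and mitosis genes lie right of 0; on the right the red points are E2f7, Foxo1 and Tob1.

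Markers of other cells were present in the stage 0 libraries, and for each list the ranges of Bcl6KO ST0 and WT ST0 overlapped. The summed level of 5 B cell markers was 16.9 to 162 CPM in Bcl6KO ST0 and 3.35 to 56.4 CPM in WT ST0, and that of 6 genes of thymic epithelium and stroma was 12.01 to 45.9 CPM in Bcl6KO ST0 and 0.795 to 18.3 CPM in WT ST0, the highest value being Col1a1 in 1 library, with Krt8, Krt5, Pdgfra and Cdh5 at 0 in all libraries. Double-positive thymocyte genes (7 of 7 detected) summed to 657 to 857 CPM in Bcl6KO ST0 and 322 to 1329.9 CPM in WT ST0, and 5 myeloid markers to 15.2 to 37.7 CPM and 12.1 to 32.9 CPM in the same groups. At stage 1 the myeloid sum was 14.7 to 50.1 CPM in Bcl6KO and 10.9 to 13.7 CPM in WT, without overlap. The double-positive sum there was 30.4 to 70.2 CPM in Bcl6KO and 12.5 to 18.1 CPM in WT, also without overlap. Its largest part in Bcl6KO was Arpp21, at 15.1, 49.7 and 15.8 CPM against 0.797, 0.197 and 0.205 CPM in WT. By mean, Rag1 (0.132 against 3.11 CPM) and Dntt (0.133 against 0.664 CPM) were lower in Bcl6KO, and the other genes of this list were higher. The B cell sums overlapped at stage 1 (2.58 to 7.99 CPM and 0.410 to 3.39 CPM). The 5 erythroid markers did not exceed 2.98 CPM in any library. All 5 B cell markers were detected in both stage 0 groups. The part of these cells in the Ccnd2 result was not tested. The Sp100 share entered only the covariate fit given above and a fit with the Sp100 counts removed. In the latter, a setting chosen after seeing the data, edgeR called 3 genes between genotypes at stage 0, Ccnd2 among them. The main fit also called 3, and the median log2 fold change of all genes was -0.01 in both. TMM already trims extreme genes, so this fit cannot show whether the Sp100 share bears on Ccnd2.

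The genes whose profiles lay closest to each of 8 of the 10 genes were found by the root mean square difference of centred log2(CPM + 1) over the 12 libraries, among 6651 named genes with a mean of at least 20 CPM. They were Pank2 (0.30), S100pbp (0.30) and Nup188 (0.31) for Ccnd2, whose own SD over the libraries was 0.63 on this scale. For Cdk6 (SD 0.52) they were Dek (0.28), Lpcat4 (0.29) and Smc6 (0.29), and for Cdk4 (SD 0.51) Inpp5d (0.21), Eef2 (0.26) and Zcchc2 (0.26). Rb1 (SD 0.36) lay closest to Thrap3 (0.18), Wdr1 (0.21) and Dtx3l (0.23), and Ccnd3 (SD 0.95) to Dlgap4 (0.20), Oxr1 (0.45) and Pdhb (0.49). For the inhibitors the nearest was Rapgef2 (0.43) for Cdkn1b (SD 0.86), Zfp367 (0.68) for Cdkn2c (SD 1.85) and Kif16b (0.65) for Cdkn2d (SD 1.18); these distances are larger, and so are the genes' own SDs. The 12 libraries share groups and library-wide shifts, so these distances are a description.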

How the data were processed

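The authors deposited raw counts for 48672 Ensembl gene IDs in each library. The submitters' processing notes name TopHat2, Bowtie2, bcl2fastq and DESeq, on mm10; tool versions, counter, annotation and strandedness are not given. Symbols and coordinates came from GENCODE M21 on the same build (48312 IDs matched). The IDs without a symbol made up 0.195% to 0.366% of a library's counts. Libraries of each group differed by more than sampling noise (chi-square per gene 27.6 to 169.9).

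Testing used edgeR 4.0.16 in R 4.3.3. The steps were filterByExpr by group (15704 genes kept), TMM scaling, 1 mean per group over all 12 libraries (8 residual degrees of freedom), robust quasi-likelihood F-tests, two-sided, and Benjamini-Hochberg adjustment over all genes at 0.05. The common biological coefficient of variation was 0.835. Standard errors are the log2 fold change over the square root of F, and 95% intervals use the moderated degrees of freedom. The procedure was tested on simulated counts. Alternatives were DESeq2 1.42.0, other scalings, filters and designs, and leaving out each library. CPM per kb divides by the length of the union of a gene's exons. Libraries carry no molecular identifiers, so the floor of 3 counts covers counting error only.

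The 10 genes, the 7 lists and the marker lists were chosen with earlier results of these data known. Text names all 10 genes, list genes past the threshold in any comparison, the most abundant gene of each list and the 3 nearest profiles per gene (the nearest for 3 inhibitors); exceptions are marked. Chromatin accessibility libraries were not analysed here.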

Additional observations from a re-analysis of the deposited data

Results flagged for a closer look

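Ccnd2 was singled out because its stage differences ran in opposite directions in the genotypes. The 3 Bcl6KO ST1 libraries (1117 to 1481 CPM) lay below the 3 Bcl6KO ST0 libraries (1739.6 to 2627 CPM), while the 3 WT ST1 libraries (959 to 1223 CPM) lay above the 3 WT ST0 libraries (696 to 759.9 CPM). The difference between the stage effects, Bcl6KO minus WT, was -1.43 on the log2 scale (SE 0.29) and did not pass (edgeR adjusted p = 0.483). Such opposite stage differences without overlap occurred in 78 of 15704 genes (0.497%), and Ccnd2 was the only one of the 10 genes among them.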

How the results depend on the processing

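Between genotypes at stage 0 the number of the 10 genes called was 0 with the 2 groups fitted alone, 0 with the Sp100 share as a covariate and 0 on library totals without TMM, a setting chosen after seeing the data. Leaving out 1 library gave 0 to 1. Between stages in Bcl6KO it was 1 (Ccnd2) with DESeq2 and 0 to 1 without 1 library. It was 1 (Ccnd2) with DESeq2 for the difference of the genotype effects. For the mean genotype effect it was 1 (Ccnd2) with DESeq2, 1 with no filter on low counts and 0 to 1 without 1 library. For the mean stage effect it was 1 (Cdk6, edgeR adjusted p = 0.0435) on totals without TMM. That scaling moved the median of all genes by -0.47 between genotypes at stage 0, by 0.50 between stages in Bcl6KO and by 0.31 for the mean stage effect.

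Signs turned in fold changes that never passed, and the cause was not tested. With the Sp100 covariate the stage 0 genotype differences became 0.49 for Cdk4, 0.15 for Cdkn1b, -3.09 for Cdkn2d and -0.30 for Rb1. The Bcl6KO stage difference of Cdk6 became -0.36 and the mean stage effect of Ccnd2 0.24. Without TMM, Cdkn2d and Rb1 stood at -0.00 and -0.15 between genotypes at stage 0, and the mean stage effect of Ccnd2 at 0.21. Without 1 library the stage 0 genotype differences ran from -2.73 to 0.02 for Cdkn2c, from -1.44 to 1.49 for Cdkn2d and from -0.05 to 0.61 for Rb1. Those of Cdk6 ran from -0.22 to 0.25 between genotypes at stage 1 and from -0.07 to 0.29 between stages in Bcl6KO. Over all printed fold changes and alternatives, 514 values kept direction and side of the threshold, 35 lost the call, 14 gained it and 14 turned sign.

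Whether replicate numbers pair the libraries could not be decided. Same-numbered libraries of different groups had correlations of -0.08 to 0.13 over 18 pairs (median 0.02). Those with different numbers had -0.24 to 0.17 over 36 pairs (median -0.01), and 6 of 12 libraries correlated best with their own number. With the replicate number as a block, the stage 0 call of Ccnd2 was kept (1.62 on the log2 scale, edgeR adjusted p = 0.0447) and Tob1 lost its own (1.58, adjusted p = 0.0506). The number of all genes called between genotypes at stage 0 was 3, 0 to 133 across edgeR alternatives and 1100 with DESeq2. For the stages it was 106 in Bcl6KO (0 to 309, DESeq2 1452) and 68 in WT (20 to 142, DESeq2 385), and for the mean stage effect 544 (16 to 830, DESeq2 1678). It was 1 for the mean genotype effect (0 to 88, DESeq2 531). The spread of low genes such as Ccnd1, Cdkn2c and Cdkn1a limits their comparisons at this depth.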
